A study of Mus musculus with 6 samples.

Results

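The T cell receptor variable (V) genes were taken as every gene whose symbol starts with Trav, Trbv, Trgv or Trdv, which gave 178 of the 57462 genes in the expression tables. Of these, 130 are alpha, 35 are beta, 7 are gamma and 6 are delta V genes. RNA was sequenced from bulk tumour tissue grown from HM1 cells, a mouse ovarian cancer line. There were 3 control tumours (labelled shControl, genotype and treatment given as wild type) and 3 tumours labelled ST3GAL3 knockdown (shST3GAL3), from what the series calls an early tumour model. ST3GAL3 is an enzyme that adds sialic acid to galactose on glycan chains, and the series title places its tumour-intrinsic activity beside anti-tumour immunity. The shRNA sequence, the number of clones, and the strain, age and sex of the mice are not stated in the labels. Whether the 3 tumours of each group grew in 3 separate mice is not stated either. The p-values therefore describe only how these tumours varied, and that variation may be technical.

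A T cell builds its antigen receptor by joining 1 V segment to a joining segment, and in beta and delta chains also a diversity segment, and splices the result to a constant gene. Conventional T cells carry an alpha and a beta chain, whereas gamma delta T cells, a smaller population of barrier tissues and tumours, carry the other pair. Each T cell clone usually expresses 1 productive beta V gene, so the number of V genes in a tissue and the evenness of their levels follow the clones that are present. In the mouse alpha locus a large block of V genes was duplicated, and the copies carry the letters D or N in their symbols.

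All members lay in the antigen receptor loci. The alpha and delta V genes are on chromosome 14, the beta V genes on chromosome 6 and the gamma V genes on chromosome 13. The GENCODE M21 annotation gives 144 members as functional V genes and 34 as V pseudogenes (20 alpha, 13 beta, 1 delta). Each printed sequence is part of the annotated coding sequence of an unrearranged V gene, exonic throughout, on the plus strand of its chromosome, from the GENCODE M21 transcripts.

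The beta V genes that led the chain in a tumour are shown first, because each held the largest share of a tumour's beta signal. The bases from the last in-frame cysteine codon to the end, where the V gene contributes the start of the antigen-contacting CDR3 loop, are in capitals, and the last 240 bases of each gene are printed.
Trbv4: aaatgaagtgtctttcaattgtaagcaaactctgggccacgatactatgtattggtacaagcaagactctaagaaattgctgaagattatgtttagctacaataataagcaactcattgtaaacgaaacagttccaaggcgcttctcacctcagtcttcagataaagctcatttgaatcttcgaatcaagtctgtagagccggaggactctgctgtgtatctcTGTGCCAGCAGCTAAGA
Trbv13-3: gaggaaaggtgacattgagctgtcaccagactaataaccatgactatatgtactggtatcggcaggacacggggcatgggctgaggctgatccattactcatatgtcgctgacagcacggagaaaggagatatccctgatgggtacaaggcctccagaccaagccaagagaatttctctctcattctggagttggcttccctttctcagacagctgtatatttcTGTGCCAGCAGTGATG
Trbv14: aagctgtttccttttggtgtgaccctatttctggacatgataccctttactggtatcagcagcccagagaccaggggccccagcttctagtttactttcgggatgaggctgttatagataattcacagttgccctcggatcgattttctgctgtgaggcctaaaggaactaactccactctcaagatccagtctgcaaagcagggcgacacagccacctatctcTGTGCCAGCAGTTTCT
Trbv16: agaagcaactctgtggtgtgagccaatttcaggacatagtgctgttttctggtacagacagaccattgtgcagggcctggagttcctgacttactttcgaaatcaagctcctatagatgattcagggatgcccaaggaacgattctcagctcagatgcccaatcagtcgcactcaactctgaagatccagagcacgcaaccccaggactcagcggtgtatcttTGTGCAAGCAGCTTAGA
Trbv17: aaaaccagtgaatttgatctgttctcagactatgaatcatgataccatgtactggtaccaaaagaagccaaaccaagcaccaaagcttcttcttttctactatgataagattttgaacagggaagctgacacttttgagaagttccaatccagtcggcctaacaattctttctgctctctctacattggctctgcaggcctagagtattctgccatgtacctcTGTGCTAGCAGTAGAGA
No beta V coding sequence was 95% or more identical to another. The alpha chain differed in this respect. Of its 110 coding sequences, 90 had another at 95% identity or more, and 32 had an identical one. The near-identical pair Trav7-4 and Trav7d-4 is shown because Trav7d-4 led the alpha chain of a tumour. They differ at 2 of 341 bases, in capitals within the first 300 bases printed here.
Trav7-4: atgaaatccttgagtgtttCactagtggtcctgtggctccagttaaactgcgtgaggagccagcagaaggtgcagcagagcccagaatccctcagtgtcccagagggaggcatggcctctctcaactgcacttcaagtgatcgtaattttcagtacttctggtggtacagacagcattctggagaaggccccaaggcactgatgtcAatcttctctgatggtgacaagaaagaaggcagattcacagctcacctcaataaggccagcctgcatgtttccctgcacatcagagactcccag
Trav7d-4: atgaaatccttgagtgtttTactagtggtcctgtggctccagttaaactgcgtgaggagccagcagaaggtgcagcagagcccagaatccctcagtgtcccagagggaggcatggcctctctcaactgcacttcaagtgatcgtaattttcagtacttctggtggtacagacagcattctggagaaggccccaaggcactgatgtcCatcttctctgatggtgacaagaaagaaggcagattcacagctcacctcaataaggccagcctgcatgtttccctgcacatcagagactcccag
A copy pair with no difference at all is Trav14d-1 and Trav14n-1, whose first 300 bases are given once, with no base in capitals.
Trav14d-1 and Trav14n-1: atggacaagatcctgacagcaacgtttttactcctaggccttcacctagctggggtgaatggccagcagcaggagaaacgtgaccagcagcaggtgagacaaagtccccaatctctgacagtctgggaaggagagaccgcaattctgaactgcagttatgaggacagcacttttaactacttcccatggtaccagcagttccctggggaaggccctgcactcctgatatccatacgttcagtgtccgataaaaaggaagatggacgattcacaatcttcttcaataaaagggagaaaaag
The annotated transcripts of both genes were identical, and their deposited values were the same in each of the 6 tumours. In all, 24 alpha members formed 12 such pairs with the same values in every tumour, and the transcripts of all 12 pairs were identical. For these genes the level of a single copy is uncertain, because reads cannot be assigned to 1 of them. The alpha concentration measures below are therefore also given with such copies summed, a setting chosen after seeing the data.

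Values are in TPM, a measure of transcript abundance that is corrected for gene length and sums to the same total in each sample. No read counts are in these tables, so the depth behind a value is unknown and a gene at 0 is described as listed at 0. The targeted gene St3gal3 had 14.03, 13.84 and 13.79 TPM in shControl tumours 1, 2 and 3, compared with 8.44, 6.77 and 7.49 TPM in shST3GAL3 tumours 1, 2 and 3. The St3gal3 groups did not overlap, in the direction of the labels. Of the epithelial markers, Krt8 ranged from 728.22 to 1295.2 TPM and Krt18 from 641.34 to 1303.81 TPM, while Krt7 was at most 0.85 TPM and Epcam at most 1.17 TPM in any tumour. The library shST3GAL3 1 stood apart from the rest. Its 346 antibody variable genes summed to 10335 TPM against 19.17 to 584.37 TPM in the other tumours, and its 4 fibroblast markers summed to 4163 TPM against 406.68 to 1155 TPM. Its sum of Krt8, Krt18, Epcam and Krt7 was the lowest, at 1372 TPM against 1967 to 2600 TPM. Results are therefore also given without that library. In bulk tissue, fewer cells of a type and less RNA per cell cannot be told apart.

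More V genes were listed above 0 in every shST3GAL3 tumour than in any shControl tumour. The shControl tumours had 45, 36 and 35 V genes above 0 and the shST3GAL3 tumours 81, 75 and 53. The means were 38.7 ± 5.51 and 69.7 ± 14.7 genes (SD, n = 3 each), a difference of 31 genes. The groups did not overlap, and the exact permutation test gave p = 0.1 (two-sided), the smallest value that 3 samples against 3 allow, so no such comparison here can reach 0.05. Without shST3GAL3 1 the difference was 25.3 genes. Of the 178 members, 116 were above 0 in at least 1 tumour (91 alpha, 18 beta, 4 gamma, 3 delta) and 62 were listed at 0 in all 6.

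The V genes together summed to 64.6, 34.58 and 41.19 TPM in shControl tumours and to 104.09, 113.12 and 51.66 TPM in shST3GAL3 tumours (exact permutation p = 0.2). The sums overlapped, since shST3GAL3 3 lay below shControl 1, although it had 53 V genes above 0 against 45. The V genes above 0 per TPM of this sum were 0.697, 1.04 and 0.850 in shControl tumours and 0.778, 0.663 and 1.03 in shST3GAL3 tumours (exact permutation p = 0.7). These ratios overlapped between the groups. With 3 tumours per group this does not show that they are equal. All genes of the tables showed a smaller shift of the same kind, with 21976 to 22118 genes above 0 in shControl and 22130 to 23039 in shST3GAL3 tumours. Among 7942 other genes in the length range of the detected V genes (328 to 595 bases), 13.8% to 13.9% were above 0 in shControl tumours and 13.5% to 16.0% in shST3GAL3 tumours. The part of sequencing depth in the counts of V genes was not tested.

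**Figure D1:**
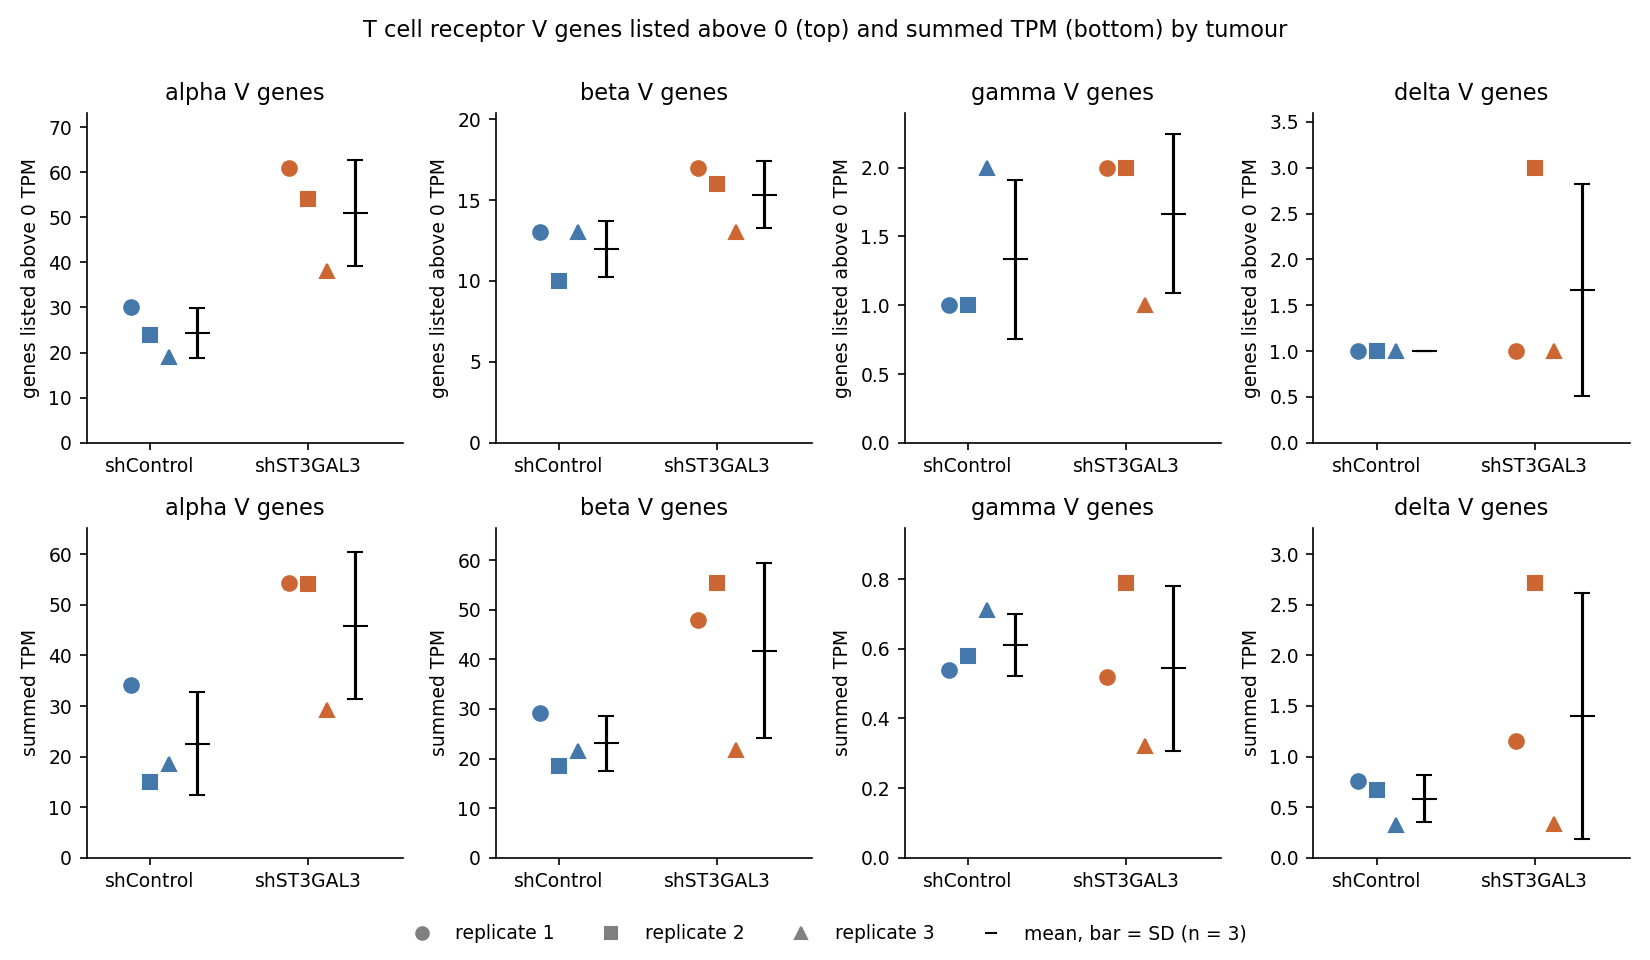
Number of V genes listed above 0 TPM (top row) and their summed TPM (bottom row) in each of the 4 receptor chains, 1 symbol per tumour, with the mean and SD of 3 tumours beside each group. The alpha gene counts of 38 to 61 in shST3GAL3 tumours lie above the 19 to 30 of shControl tumours, while the summed TPM of every chain overlaps between groups.

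The alpha chain carried most of the difference in gene number. Alpha V genes above 0 numbered 30, 24 and 19 in shControl tumours and 61, 54 and 38 in shST3GAL3 tumours, or 24.3 ± 5.51 against 51 ± 11.8 (SD, n = 3 each, exact permutation p = 0.1). At 1 TPM or more there were 9, 4 and 5 alpha genes in shControl and 15, 21 and 10 in shST3GAL3 tumours (exact permutation p = 0.1). Neither measure overlapped between the groups. With the copies of each family joined into subgroups, 13, 12 and 8 alpha subgroups were above 0 in shControl and 15, 16 and 17 in shST3GAL3 tumours (exact permutation p = 0.1). So the separation was also present where near-identical copies were counted together.

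The summed alpha level was 34.07, 14.9 and 18.62 TPM in shControl tumours and 54.42, 54.13 and 29.22 TPM in shST3GAL3 tumours. Tumour shST3GAL3 3 lay below shControl 1, so the groups overlapped. The difference was 1.03 on the log2(TPM + 1) scale (exact permutation p = 0.2, adjusted p = 0.4 over the 4 chain sums), and 0.88 without shST3GAL3 1. A pseudocount of 1 was added before each log, which shrinks the change of low values.

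Beta V genes above 0 numbered 13, 10 and 13 in shControl and 17, 16 and 13 in shST3GAL3 tumours (exact permutation p = 0.3). Their sums were 29.23, 18.43 and 21.54 TPM in shControl and 48.0, 55.48 and 21.79 TPM in shST3GAL3 tumours. Tumours shST3GAL3 1 and 2 were above all controls in the beta sum, and shST3GAL3 3 lay among them. The difference was 0.75 on the log2(TPM + 1) scale (exact permutation p = 0.2, adjusted p = 0.4). It was 0.60 without shST3GAL3 1 and 0.50 without shST3GAL3 2, and 1.15 without shST3GAL3 3. At 1 TPM or more there were 5, 6 and 7 beta genes in shControl and 12, 10 and 8 in shST3GAL3 tumours, which did not overlap (exact permutation p = 0.1).

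Gamma and delta V genes were near the bottom of the range in all tumours. Gamma sums were 0.54, 0.58 and 0.71 TPM in shControl and 0.52, 0.79 and 0.32 TPM in shST3GAL3 tumours, a difference of -0.07 on the log2(TPM + 1) scale (exact permutation p = 0.7, adjusted p = 0.7). Delta sums were 0.76, 0.67 and 0.32 TPM in shControl and 1.15, 2.72 and 0.33 TPM in shST3GAL3 tumours, a difference of 0.49 (exact permutation p = 0.4, adjusted p = 0.533). Both chains overlapped between groups. The gamma difference changed sign, to 0.036, without shST3GAL3 3, and the delta difference was 0.11 without shST3GAL3 2.

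The same 6 tumours differed in how far the signal was concentrated on few V genes. In the alpha chain the highest gene held 25.6%, 17.1% and 17.3% of the sum in shControl tumours and 8.67%, 13.3% and 13.2% in shST3GAL3 tumours. The groups did not overlap, and the difference of the means was -8.31 percentage points (exact permutation p = 0.1, adjusted p = 0.1 over 4 measures of concentration). In the beta chain the highest gene held 39.1%, 41.0% and 44.9% in shControl and 13.8%, 21.4% and 25.9% in shST3GAL3 tumours. The mean difference was -21.3 percentage points, again with no overlap (exact permutation p = 0.1, adjusted p = 0.1). Without shST3GAL3 1 the differences were -6.79 points for alpha and -18.0 points for beta, and the alpha difference was -5.51 points without shControl 1. With copies of the same values summed, the pair Trav14d-1 and Trav14n-1 became the leader of shControl 3 with 26.1% of the alpha sum, and the alpha difference was -11.2 points. With the genes of each subgroup joined, the differences were -20.6 points for alpha and -11.8 points for beta.

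The effective number of genes, the inverse of the summed squared shares, counts how many equally expressed genes would give the same concentration. For alpha it was 9.82, 12.8 and 10.4 in shControl and 32.4, 25.4 and 18.8 in shST3GAL3 tumours, a difference of 14.5. For beta it was 4.75, 4.19 and 4.22 in shControl and 12.1, 7.26 and 7.48 in shST3GAL3 tumours, a difference of 4.55. Neither chain overlapped between the groups (exact permutation p = 0.1 and adjusted p = 0.1 for both). Without shST3GAL3 1 the differences were 11.1 for alpha and 2.98 for beta. They were 3.84 and 1.63 with subgroups joined, and 14.1 for alpha with copies of the same values summed. The 3 highest alpha genes together held 38.4% to 44.2% of the alpha sum in shControl and 19.5% to 29.4% in shST3GAL3 tumours. The 3 highest beta genes held 63.6% to 73.5% in shControl and 35.6% to 58.5% in shST3GAL3 tumours. All 4 concentration measures separated the groups in every sample. In the beta chain, shST3GAL3 3 had 13 genes above 0, as did shControl 1 and 3, and a sum of 21.79 TPM against 29.23 and 21.54 TPM. Its effective number was 7.48, against their 4.75 and 4.22. This comparison rests on 1 shST3GAL3 tumour. The part of V gene abundance in the concentration measures was not tested.

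**Figure D2:**
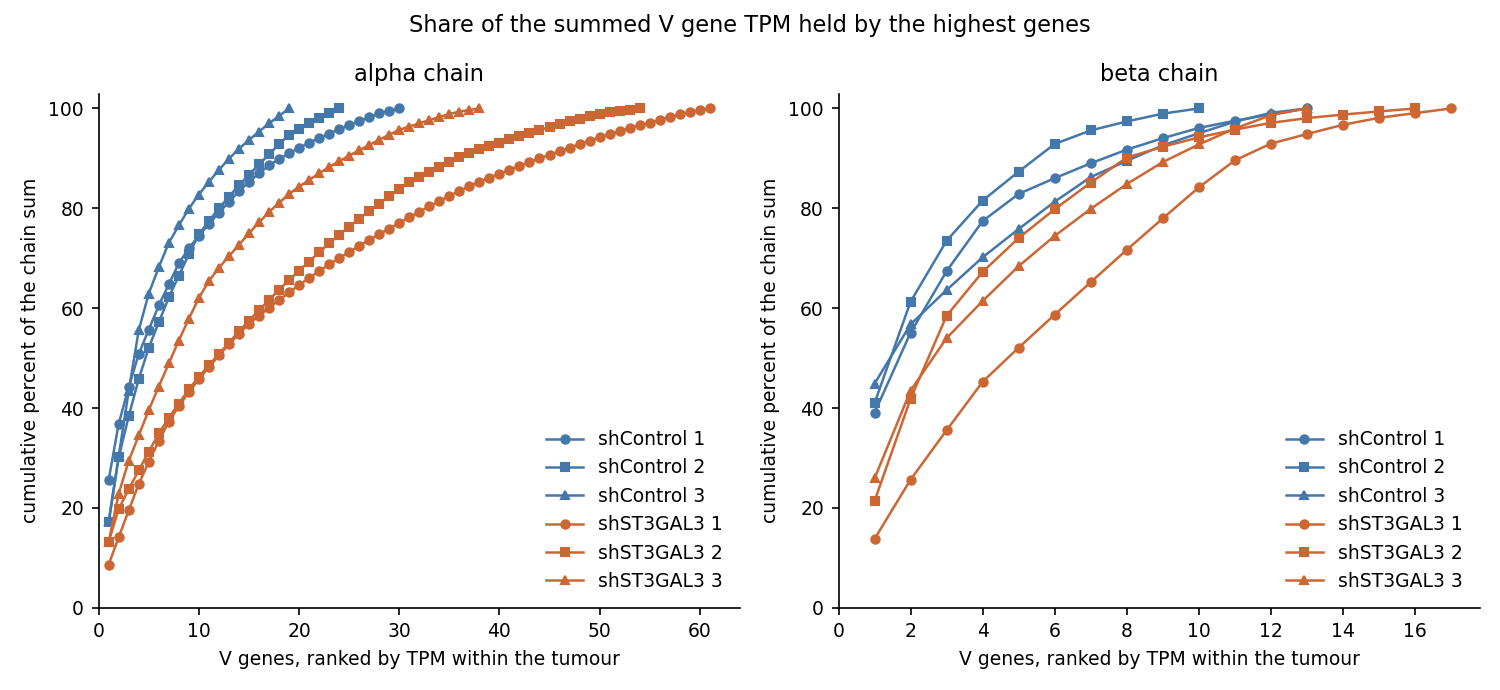
Cumulative percent of the alpha (left) and beta (right) V gene sum, with genes ranked by TPM within each tumour, 1 line per tumour. The shControl lines start at 17.1% to 25.6% for alpha and 39.1% to 44.9% for beta, above the starts of the shST3GAL3 lines (8.67% to 13.3% and 13.8% to 25.9%).

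The gene that led a chain was rarely the same in different tumours. Trbv4 (ENSMUSG00000107486) led the beta chain of shControl 1 at 11.42 TPM, Trbv13-3 (ENSMUSG00000076470) that of shControl 2 at 7.56 TPM, and Trbv16 (ENSMUSG00000076473) that of shControl 3 at 9.67 TPM. Among the shST3GAL3 tumours, Trbv4 led the first at 6.62 TPM, Trbv14 (ENSMUSG00000076471) the second at 11.88 TPM, and Trbv17 (ENSMUSG00000076474) the third at 5.65 TPM. Of the beta genes only Trbv4 led in more than 1 tumour, once in each group.

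Trbv16 was high in a single tumour. It was at 9.67 TPM in shControl 3, at 0.38 TPM in shControl 1 and listed at 0 in shControl 2, against 0.45, 0.75 and 0.29 TPM in the shST3GAL3 tumours. The shControl 3 value stood far above the other 5 tumours. Trbv14 was at 4.69 TPM in shControl 1 and listed at 0 in the other two controls, against 3.28, 11.88 and 1.62 TPM in shST3GAL3 tumours, and the groups overlapped (log2 difference 1.56, SE 0.85). Trbv4 was at 11.42, 3.74 and 2.56 TPM in shControl and 6.62, 11.35 and 1.32 TPM in shST3GAL3 tumours, with a log2 difference of 0.02 (SE 0.71). Trbv13-3 was at 0.60, 7.56 and 0.67 TPM in shControl and 4.74, 9.23 and 0.69 TPM in shST3GAL3 tumours, with a log2 difference of 0.71 (SE 0.87). For Trbv4 and Trbv13-3 the spread within each group was larger than the difference between the groups.

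The Trbv13 subgroup, 3 neighbouring genes with separate sequences, had summed levels of 3.53, 7.56 and 2.95 TPM in shControl and 13.43, 16.87 and 6.81 TPM in shST3GAL3 tumours. Joined in this way it led the beta chain in all 3 shST3GAL3 tumours, with 28.0%, 30.4% and 31.3% of the sum, and in shControl 2, where Trbv13-3 was its whole signal. The groups still overlapped, since shControl 2 exceeded shST3GAL3 3.

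The alpha leaders also differed. In shControl tumours they were Trav6d-7 (ENSMUSG00000095756) at 8.73 TPM, Trav6n-6 (ENSMUSG00000076802) at 2.55 TPM and Trav13n-4 (ENSMUSG00000076823) at 3.23 TPM. The leader of shControl 3 depends on how copies are counted, since Trav14d-1 and Trav14n-1, which cannot be told apart, were listed at 2.43 TPM each and summed to 4.86 TPM. In shST3GAL3 tumours they were Trav7d-4 (ENSMUSG00000094023) at 4.72 TPM, Trav7-2 (ENSMUSG00000096417) at 7.18 TPM and Trav6n-6 at 3.86 TPM. Of these, Trav13n-4 was listed at 0 in all other tumours, and Trav7d-4 and Trav7-2 were listed at 0 in all 3 controls. Trav7-4, which differs from Trav7d-4 at the 2 bases shown above, was at 0.55, 0 and 0.91 TPM in shControl and 0.83, 0 and 0.31 TPM in shST3GAL3 tumours. The copy Trav7d-4 was at 4.72, 0.55 and 0 TPM in shST3GAL3 tumours. How the reads were divided between the copies was not tested.

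**Figure D3:**
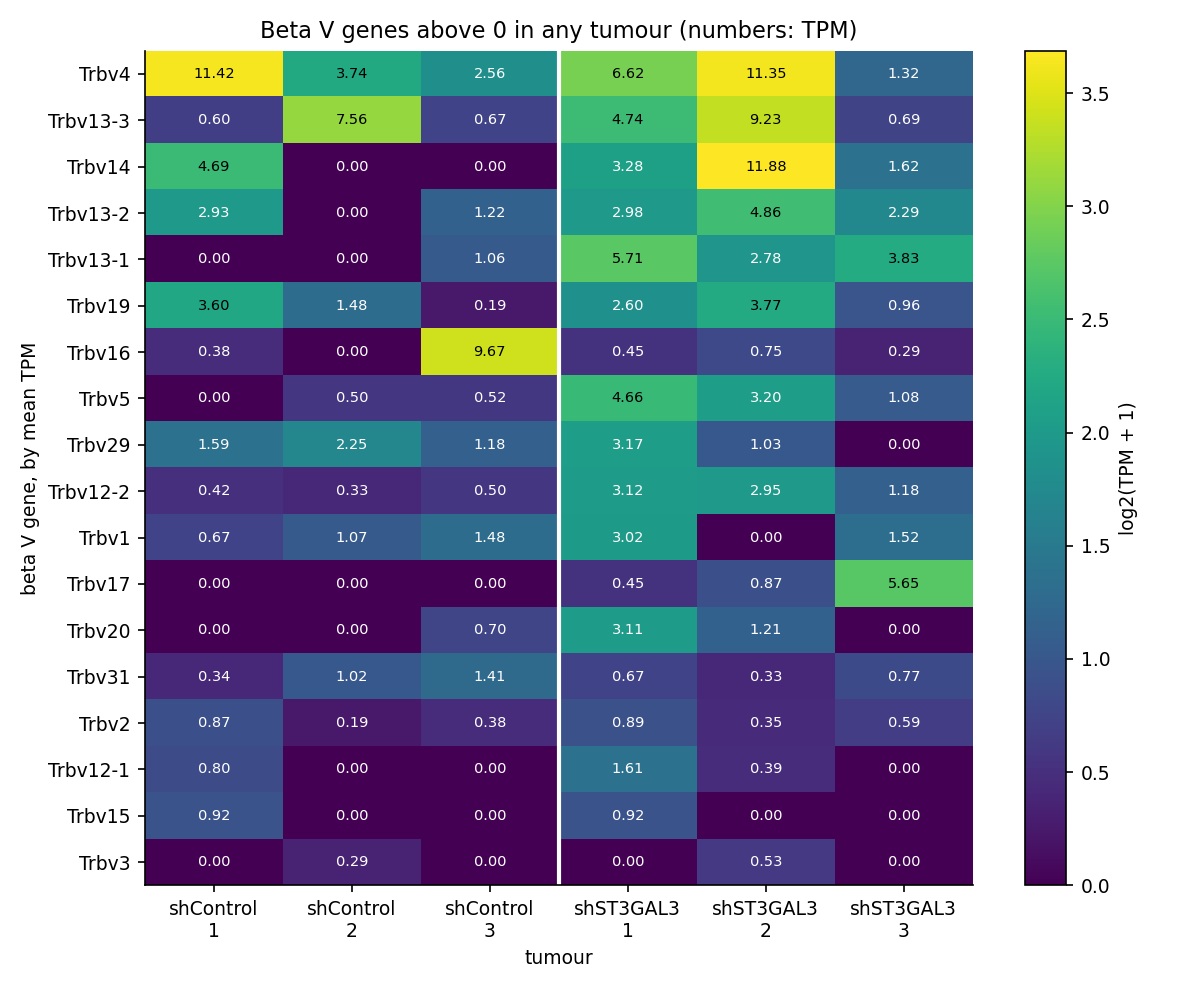
TPM of the 18 beta V genes above 0 in any tumour, with genes ordered by mean TPM (vertical axis), tumours on the horizontal axis and color showing log2(TPM + 1). The highest cell is a different gene in each shControl tumour, at 11.42, 7.56 and 9.67 TPM, and the values are spread over more genes in shST3GAL3 1 and 2.

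Single V genes were tested in a fit across all genes that reached 1 TPM in at least 3 tumours, 14207 in all, with limma on log2(TPM + 1). Only 14 members entered it, 10 beta and 4 alpha, and none passed an adjusted p of 0.05. In the whole fit 1 gene passed, or 0.00704%, and it was lower in shST3GAL3 tumours (0% higher). The lowest adjusted p of a member was 0.380 in limma. The targeted gene St3gal3 did not pass either (log2 difference -0.80, SE 0.11, adjusted p = 0.348, limma). Not passing here therefore does not show that a gene was unchanged. At an unadjusted p under 0.05, 3 members were higher and 0 lower in shST3GAL3, against 9.19% higher and 3.78% lower of all genes tested. The same 3 members had groups that did not overlap, where 15.7% of all genes tested did so in that direction and 7.76% in the other. For 2 of the 3 the filter itself fixed this outcome, so nothing is read from their count.

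These 3 were beta genes. Trbv13-1 (ENSMUSG00000076467) was listed at 0 in shControl 1 and 2 and at 1.06 TPM in shControl 3, against 5.71, 2.78 and 3.83 TPM in shST3GAL3 tumours. Every shST3GAL3 value was above the highest control, with a log2 difference of 1.96 (SE 0.36, unadjusted p = 0.00113, limma). Trbv12-2 (ENSMUSG00000094525) was at 0.42, 0.33 and 0.50 TPM in shControl and 3.12, 2.95 and 1.18 TPM in shST3GAL3 tumours, a log2 difference of 1.22 (SE 0.28). Trbv5 (ENSMUSG00000076465) was at 0, 0.50 and 0.52 TPM in shControl and 4.66, 3.20 and 1.08 TPM in shST3GAL3 tumours, a log2 difference of 1.48 (SE 0.40). In Trbv12-2 and Trbv5 the lowest shST3GAL3 value was from replicate 3. These 2 genes reached 1 TPM in the shST3GAL3 tumours alone and entered the fit only through them, so their values are a description.

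The other 11 members in the fit had groups that overlapped. Among beta genes, the log2 differences were 1.05 (SE 0.50) for Trbv13-2, 0.44 (SE 0.55) for Trbv19, 0.08 (SE 0.50) for Trbv1 and -0.37 (SE 0.50) for Trbv29. Among alpha genes they were 0.51 (SE 0.44) for Trav16n, 0.05 (SE 0.87) for Trav6d-7, 0.03 (SE 0.58) for Trav6n-6 and -0.44 (SE 0.74) for Trav14-2. Over the 14 members the median log2 difference was 0.48 and 12 were positive, against a median of 0.01 and 52.7% positive over all genes tested. Since members that are high in 1 group pass the filter more easily, this count is a description only.

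Without the filter, the groups did not overlap for 8 of the 116 members above 0 in any tumour, all higher in shST3GAL3. That is 6.90% of them, against 10.7% of all 28218 genes above 0 in any tumour (4.92% in the other direction). A gene must be above 0 in at least 3 tumours to be apart in this direction. Of the 116 members, 28 were above 0 in exactly 1 tumour and 36 in exactly 2. Both shares therefore depend on how many tumours a gene was seen in, and nothing is read from them. The 8 members were Trbv13-1, Trbv12-2, Trbv5, Trbv17, Trav16d-dv11, Trav8n-2, Trav14d-3-dv8 and Trdv4. Of these 8, 3 members were above 0 in all shST3GAL3 tumours and listed at 0 in all controls, against 147 of the 28218 genes (0.521%). No member showed the reverse, against 65 of the 28218 genes (0.23%). Only genes above 0 in exactly 3 tumours can show either pattern. These were 12 of the 116 members. The matching number among the 28218 genes was not counted, so the shares are not directly comparable. Trbv17 was at 0.45, 0.87 and 5.65 TPM, Trav16d-dv11 (ENSMUSG00000076796) at 2.12, 2.06 and 0.61 TPM, and Trav8n-2 at 1.42, 0.35 and 1.21 TPM in shST3GAL3 tumours 1, 2 and 3. Apart from Trbv17 in shST3GAL3 3, these were low levels.

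A V gene was more often listed above 0 in more shST3GAL3 than shControl tumours than the reverse. Of the 108 members above 0 in 1 to 5 tumours, 72 (66.7%) were above 0 in more shST3GAL3 tumours and 16 (14.8%) in fewer. Of all 10154 genes above 0 in 1 to 5 tumours, 45.5% and 35.6% did so. Members share loci, sequences and cells, so they are not independent replicates, and no test was made on this count. The alpha chain gave 61 of the 72 and 12 of the 16. In it 41 genes were above 0 only in shST3GAL3 tumours, 8 only in shControl tumours and 42 in both.

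Alpha and beta genes were shared between tumours to different degrees. Of the 91 alpha genes above 0, 27 were seen in exactly 1 tumour and 30 in exactly 2, and only Trav6n-6 and Trav13-3 in all 6. No beta gene was seen in exactly 1 tumour, and 6 of 18 were seen in all 6, namely Trbv4, Trbv13-3, Trbv19, Trbv12-2, Trbv31 and Trbv2. Any pair of shControl tumours shared 7 to 9 alpha genes, which was 29.2% to 47.4% of either tumour's list. Pairs of shST3GAL3 tumours shared 25 to 36, or 46.3% to 78.9%, and pairs from different groups 12 to 23, or 21.3% to 78.9%. The longer lists of the shST3GAL3 tumours overlapped more by number. For beta the shared genes were 8 to 10 within shControl, 12 to 15 within shST3GAL3 and 8 to 13 between groups.

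**Figure D4:**
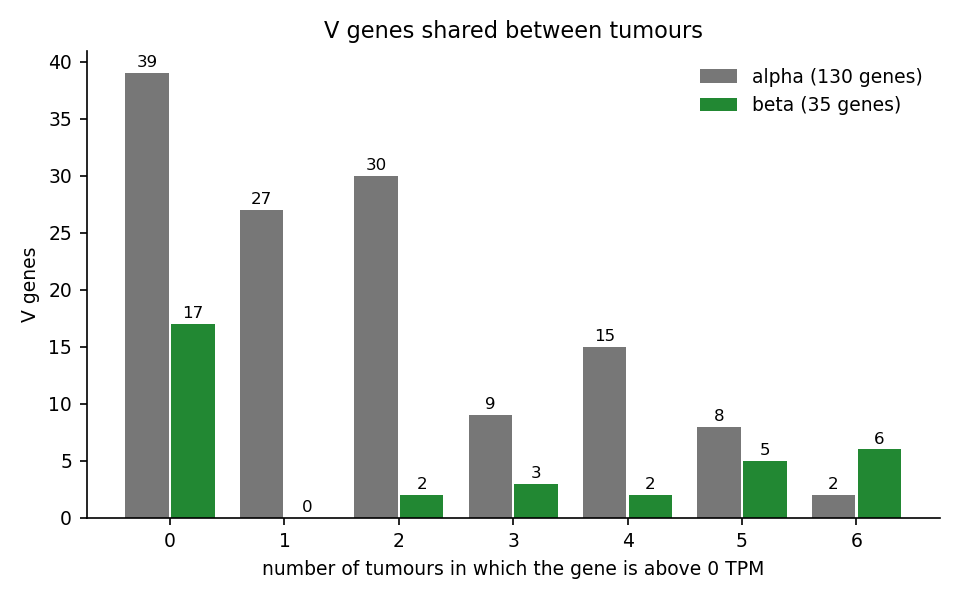
Number of alpha (grey) and beta (green) V genes (vertical axis) by the number of tumours in which they are above 0 TPM (horizontal axis). Alpha genes pile up at 1 and 2 tumours (27 and 30 genes), and beta genes above 0 at 5 and 6 tumours (5 and 6 genes).

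Of the 19 alpha subgroups above 0 in any tumour, Trav16, Trav12 and Trav8 had groups that did not overlap, all higher in shST3GAL3. Of single genes, 15.7% of those tested and 10.7% of those above 0 in any tumour did so in that direction. Trav16, 3 genes, summed to 1.66, 0.74 and 0 TPM in shControl and 5.20, 3.75 and 2.13 TPM in shST3GAL3 tumours. Trav12, 10 genes, summed to 0.29, 1.23 and 0 TPM in shControl and 1.96, 2.41 and 1.39 TPM in shST3GAL3 tumours. Trav8, 5 genes, summed to 0, 0.40 and 0 TPM in shControl and 5.69, 0.71 and 5.32 TPM in shST3GAL3 tumours. These 3 families were chosen after their values were seen, no test was made, and nothing is read from their number. The families with the highest levels overlapped instead, with Trav6 at 17.33, 4.38 and 0.98 TPM in shControl and 8.76, 9.66 and 7.49 TPM in shST3GAL3 tumours. Trav14 was at 3.27, 1.59 and 7.98 TPM in shControl and 3.10, 10.17 and 3.39 TPM in shST3GAL3 tumours, and Trav7 at 1.57, 0.65 and 3.16 TPM against 9.22, 8.68 and 0.73 TPM.

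The duplicated blocks of the alpha locus were both represented. Copies with the letter D had 7, 8 and 6 genes above 0 in shControl and 23, 18 and 15 in shST3GAL3 tumours. Copies with the letter N had 7, 7 and 5 against 13, 16 and 10, and genes with neither letter had 16, 9 and 8 against 25, 20 and 13. The D and N counts did not overlap between groups, and the counts of genes with neither letter did. Division of reads between identical copies can add to the D and N counts. With identical-valued copies counted once, the difference in V genes above 0 per tumour was 26.3 instead of 31, a setting chosen after seeing the data.

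The 10 alpha members named with both Trav and dv can serve an alpha or a delta chain, because the delta locus lies inside the alpha locus. Their sums were 1.77, 0 and 0.30 TPM in shControl and 9.04, 5.36 and 3.57 TPM in shST3GAL3 tumours. The groups did not overlap. Counted with the delta chain, they moved the delta difference from 0.49 to 1.90 on the log2(TPM + 1) scale (exact permutation p = 0.1). Which constant gene these V genes were spliced to is not given by a gene-level table. Their sum also depends on how reads were divided between them and copies named without dv, which was not tested. Trav15d-2-dv6d-2 has the same coding sequence as Trav15n-2, and Trav16d-dv11 is 97.45% identical to Trav16n. Trav16n was at 1.66, 0.74 and 0 TPM in shControl tumours, where Trav16d-dv11 was listed at 0. In shST3GAL3 tumours Trav16n was at 2.28, 1.69 and 0.53 TPM. Trdc, the delta constant gene, was at 0.06, 0.09 and 0.15 TPM in shControl and 0.55, 0.26 and 0.30 TPM in shST3GAL3 tumours.

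Of the gamma V genes, 4 of 7 were above 0 in any tumour and none reached 1 TPM. Trgv2 was at 0, 0 and 0.22 TPM in shControl and 0.20, 0.48 and 0.32 TPM in shST3GAL3 tumours. Trgv3 was at 0.54, 0.58 and 0 TPM in shControl and listed at 0 in all shST3GAL3 tumours. Trgv4 was listed at 0 in all shControl tumours and at 0.32, 0.31 and 0 TPM in shST3GAL3 tumours, and Trgv6 was above 0 in shControl 3 alone, at 0.49 TPM. Different gamma genes made up the sum in different tumours. Of the delta genes, Trdv4, which pairs with Trgv6 in a well-known tissue-resident gamma delta population, was at 0, 0 and 0.32 TPM in shControl and 1.15, 0.57 and 0.33 TPM in shST3GAL3 tumours. Trdv1 was above 0 in shControl 2 at 0.67 TPM and in shST3GAL3 2 at 1.78 TPM, and Trdv2-2 in shControl 1 at 0.76 TPM and in shST3GAL3 2 at 0.37 TPM. Only shControl 3 had both Trgv6 and Trdv4 above 0.

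Some innate-like T cell populations use fixed alpha V genes. Invariant NKT cells use Trav11 or its copies: Trav11d was at 0, 0 and 0.65 TPM in shControl and 0, 1.13 and 1.35 TPM in shST3GAL3 tumours, while Trav11 and Trav11n were listed at 0 throughout. The coding sequences of Trav11 and Trav11d differ only at the last of 343 aligned positions, so the copy behind these values is uncertain. Mucosal-associated invariant T cells use Trav1, which was above 0 only in shST3GAL3 3, at 0.53 TPM. Among the V pseudogenes, Trav13-3 was the only one of 34 above 0, at 0.64, 1.94 and 0.98 TPM in shControl and 0.79, 2.02 and 0.14 TPM in shST3GAL3 tumours. Of the functional members, 29 were listed at 0 everywhere. They were 20 alpha, 3 gamma and 2 delta genes and the 4 beta genes Trbv21, Trbv23, Trbv26 and Trbv30.

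Every productive chain carries 1 V and 1 constant segment, so the summed V genes were set beside the constant genes. For beta, the V sum was 0.968, 0.912 and 0.881 of Trbc1 plus Trbc2 in shControl and 0.922, 1.08 and 0.824 in shST3GAL3 tumours, a difference of 0.02 (exact permutation p = 0.8, adjusted p = 0.8). The beta ratio thus lay near 1 in all tumours, with full overlap of the groups. For alpha, the V sum was 1.92, 1.32 and 1.08 times Trac in shControl and 1.73, 2.26 and 2.15 times in shST3GAL3 tumours, a difference of 0.61 (exact permutation p = 0.2, adjusted p = 0.4). The alpha ratio was above 1 in every tumour and overlapped between groups.

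**Figure D5:**
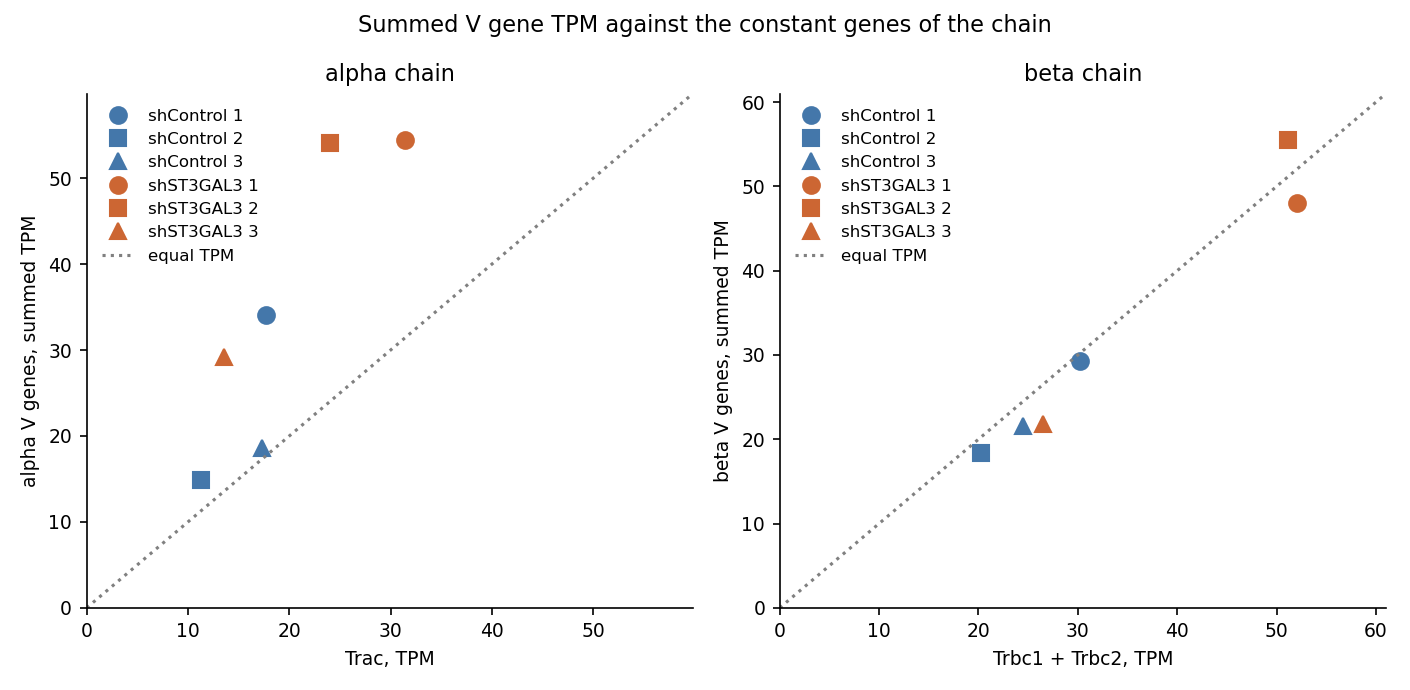
Summed V gene TPM against the constant gene TPM of the same chain, 1 symbol per tumour, with a dotted line of equal TPM. Beta values lie close to the line (ratios 0.824 to 1.08), and alpha values lie above it (1.08 to 2.26).

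The other genes of the receptor pathway were mostly higher on average in shST3GAL3 tumours, and none of those tested passed in the limma fit (background 0.00704%). Of the 8 constant genes, 4 entered the limma fit, all 4 were higher on average in shST3GAL3 and none passed. Trbc2 was at 12.64, 11.17 and 16.92 TPM in shControl tumours, against 31.3, 32.25 and 17.26 TPM in shST3GAL3 tumours, with no overlap (log2 difference 0.91, SE 0.26, adjusted p = 0.380, limma). The other 3 fitted constant genes overlapped between groups, with log2 differences of 0.50 (SE 0.31) for Trac, 0.49 (SE 0.39) for Trbc1 and 0.03 (SE 0.46) for Trgc2. The 4 CD3 complex genes, which carry the receptor's signal, had a median log2 difference of 0.62 and summed to 27.4 to 39.36 TPM in shControl and 28.9 to 61.16 TPM in shST3GAL3 tumours. The co-receptors Cd4, Cd8a and Cd8b1 summed to 12.79 to 16.92 TPM in shControl and 19.37 to 37.72 TPM in shST3GAL3 tumours (median log2 difference 0.74). The recombination genes Rag1 and Rag2, active in developing T cells of the thymus, were at most 0.02 TPM. The thymus marker Dntt was at 0.06, 0 and 0.12 TPM in shControl and 0.38, 0.19 and 0.17 TPM in shST3GAL3 tumours, without overlap. Another thymus marker, Ptcra, went the other way on average, at 0.1, 0.11 and 0.11 TPM against 0.1, 0.05 and 0 TPM. Il17a, a cytokine gene of a subset of gamma delta T cells, was listed at 0 in all tumours.

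Markers of several cell types also differed between the tumours. The 8 T cell markers, of which 2 are constant genes, were all higher on average and summed to 63.76 to 86.25 TPM in shControl and 76.24 to 160.47 TPM in shST3GAL3 tumours. The 4 summed fibroblast markers did not overlap, at 406.68 to 663.2 TPM in shControl and 757.32 to 4163 TPM in shST3GAL3 tumours. Neither did 4 summed B cell markers, at 0.49 to 0.88 TPM against 1.11 to 6.57 TPM. Taken singly, the B cell markers Ms4a1, Cd79a and Pax5 overlapped between groups. The 5 lymph node markers summed to 15.78 to 16.76 TPM against 16.42 to 41.12 TPM, with the highest value in shST3GAL3 1. The 5 natural killer cell markers summed to 18.19 to 21.65 TPM against 15.85 to 28.6 TPM. The sum of the 4 macrophage markers did not overlap either, at 441.91 to 503.55 TPM against 538.71 to 991.25 TPM. Taken singly, the macrophage marker Adgre1 overlapped, at 14.95 to 22.8 TPM in shControl and 18.01 to 58.13 TPM in shST3GAL3 tumours. The 4 thymus markers summed to 0.11 to 0.25 TPM against 0.17 to 0.49 TPM, with Rag2 listed at 0. The tumours with the highest V sums, shST3GAL3 1 and 2, also had the highest T cell marker sums, 160.47 and 145.89 TPM. The part of these cell types in the V gene differences was not tested.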

How the data were processed

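RNA sequencing values of 6 tumours, 3 per group, were used as deposited. Per the submitters' processing notes, fastp, HISAT, RSEM and the mouse build GRCm39 were used, with no versions given. The authors deposited 1 table per tumour with TPM per gene, printed to 2 decimals, and the depth is unknown. Groups were taken from the sample titles. The labels give no batch. Genes reaching 1 TPM in at least 3 of the 6 tumours were tested on log2(TPM + 1) with limma 3.58.1 (trend, R 4.3.3), with Benjamini-Hochberg adjustment, in a script checked on simulated data. Gene counts, chain sums, shares and ratios were compared with exact two-sided permutation tests over samples in Python 3.11.15. Gene class, chromosome and sequence came from GENCODE M21 by gene ID, which matched all 178 members. That annotation is on an older build, so no coordinates are given, and 175 members had the deposited transcript length. Named genes were the 3 highest of each chain, the leaders of each tumour, genes in the fit, genes above 0 in all tumours of 1 group alone, detected gamma and delta genes, and Trav11 and Trav1. Other names were chosen after values were seen. The members and lists were chosen with earlier results of these data known. Alternatives covered the detection limit, pseudocount, filter, scaling, pseudogenes, joined subgroups, the replicate block and leaving out each tumour. Some genes of the lists are not reported here.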

Additional observations from a re-analysis of the deposited data

How the results depend on the processing

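Of 124 recomputed values, 122 kept their direction and their side of the threshold, and 2 changed sign. The gamma V sum difference (main -0.07, log2 scale) was 0.036 without shST3GAL3 replicate 3, and the beta V to constant ratio difference (main 0.02) was -0.048 without shST3GAL3 replicate 2. No test over samples could pass 0.05, so this says little about stability. Leaving out each tumour gave 25.3 to 39.3 for the difference in V genes above 0, 0.78 to 1.36 for the alpha sum, 0.50 to 1.15 for the beta sum, -0.18 to 0.036 for the gamma sum and 0.11 to 0.85 for the delta sum. It gave -9.77 to -5.51 and -24.1 to -18.0 percentage points for the alpha and beta leading shares, 11.1 to 17.9 and 2.98 to 5.39 for the effective numbers, and 0.42 to 0.85 and -0.048 to 0.083 for the V to constant ratios. The difference of 31 V genes was 14 at a TPM of at least 1, and 8 with subgroups joined. Joining subgroups also gave leading share differences of -20.6 (alpha) and -11.8 (beta) and effective number differences of 3.84 and 1.63. The delta sum difference was 0.82 with a pseudocount of 0.1 and 1.90 with alpha/delta genes counted as delta, and the gamma one was -0.20 with a pseudocount of 0.1. No member passed in limma under any of 12 alternatives (lowest adjusted p 0.136 to 0.662). At an unadjusted p under 0.05 in limma, 3 of 14 members tested were higher, where 9.19% of all genes were. This was 11 of 116 with no filter (5.90% of all genes), 13 of 52 with a filter of above 0 in 3 tumours (7.62%) and 6 of 14 without shControl replicate 1 (5.73%). Filters that a gene can pass through 1 group alone favour such counts. Whether the replicate numbers pair the tumours is not stated, and same-numbered deviations correlated at 0.01, -0.08 and 0.04. With 3 tumours per group, such correlations cannot exclude a pairing. With a replicate block, limma called 0 members, and the exact sign-flip p for the difference of 31 V genes was 0.25, the smallest possible. Unknown depth limits what a gene listed at 0 can show.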

Other observations

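All 84 rows of receptor joining and diversity segments, 9 to 72 bases long, were listed at 0 in every tumour, although V and constant genes of the same chains were above 0. Antibody V genes, the B cell counterpart, were listed above 0 in 19, 35 and 20 cases in shControl and in 138, 84 and 43 cases in shST3GAL3 tumours. Their sums were 41.79, 135.15 and 19.17 TPM in shControl and 10335, 584.37 and 140.27 TPM in shST3GAL3 tumours. The gene counts and the sums did not overlap between groups (exact permutation p = 0.1 for both, the smallest possible). The share of detected T cell receptor V genes under 1 TPM was 68.9%, 72.2% and 65.7% in shControl and 65.4%, 57.3% and 66.0% in shST3GAL3 tumours (exact permutation p = 0.2). The gamma share of all V gene TPM was 0.836%, 1.68% and 1.72% in shControl and 0.4996%, 0.698% and 0.619% in shST3GAL3 tumours, which did not overlap (exact permutation p = 0.1), while the gamma sums themselves did.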
